A study of Homo sapiens with 9 samples.

Results

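The genes described here are 39 genes of glucose uptake, glycolysis and the response to low oxygen, followed in 9 RNA-seq libraries of SW1783, a human astrocytoma cell line. They were taken by name: 4 sugar and lactate transporters, 20 glycolytic enzymes with their close regulators, 11 other targets of the hypoxia-inducible factors (HIF), and 4 genes for HIF subunits and prolyl hydroxylases. Each symbol matched 1 of the 60675 Ensembl genes in the count table, and all 39 were among the 18356 genes tested, so none was lost to the filter on low counts. The series profiles what tonifying herbal medicines do to the transcriptome. All cells were kept in L-15 medium with 10% serum and treated for 24 h. The 3 vehicle libraries (replicates 1 to 3) came from cells given DMSO. The 6 treated libraries came from cells given a 70% ethanol extract of Poria Cocos, a fungus, or of Atractylodis Rhizoma, a plant rhizome, at 20, 100 or 500 µg/mL, with 1 library for each extract and dose. The labels state 0.1% DMSO for the vehicle where the series design states 2%, which could not be settled, and they state no DMSO percentage for the treated libraries. Nothing says that the libraries came from separate cultures, so p-values here reflect the spread among the libraries alone, and that spread may be technical. As no dose of an extract has a second library, single doses are described without a test. All 6 treated libraries carry replicate number 2. A shift that they all share cannot be told apart from a difference in handling between treated and vehicle libraries.

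Glycolysis splits glucose into pyruvate. Glucose enters through transporters of the SLC2A family, is trapped by hexokinase, passes the phosphofructokinase step that commits it to the pathway, and is cleaved by aldolase. The lower enzymes from GAPDH to pyruvate kinase recover ATP, and lactate dehydrogenase turns pyruvate into lactate, which leaves through monocarboxylate transporters. HIF-1 and HIF-2 are transcription factors made of an oxygen-labile alpha subunit (HIF1A or EPAS1) and a stable partner. In the presence of oxygen, prolyl hydroxylases of the EGLN family mark the alpha subunits for destruction by the VHL ligase. In low oxygen they persist, bind DNA at the core letters ACGTG or GCGTG and switch on most glycolytic genes together with genes for vessel growth, pH control and mitophagy. Gliomas are known for high glycolysis, and L-15 medium offers galactose and pyruvate in place of glucose.

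To show where such core letters lie, the 250 bases before the first listed start of each gene were read from the RefSeq promoter table (GRCh38.p14), which held 33 of the 39 genes. The letters ACGTG and GCGTG were searched on both strands, so CACGT and CACGC count too, and CACGTG holds ACGTG on both strands and counts 2 times. At least 1 core stood in 21 of the 33 promoters (63.6%), against 43.1% of all 27305 promoters in the table. The share was 12 of 22 (54.5%) for the transporters and glycolytic enzymes and 6 of 7 (85.7%) for the other HIF targets. BNIP3 had the most with 6, LDHA and ALDOC had 5 each, and SLC2A1, PFKM, LDHB, PKM, HK1 and TPI1 were among those with none in this window. The promoters of 5 genes that behaved differently in these libraries are printed, in lower case with the cores in capitals. BNIP3 (chr10:131981924-131982173, minus strand) differed between the extracts, LDHA (chr11:18394313-18394562, plus strand) passed none of the main tests, ENO2 (chr12:6914330-6914579, plus strand) was high at 1 dose of Atractylodis, KDM3A (chr2:86441121-86441370, plus strand) rose with both extracts, and SLC2A1 (chr1:42958869-42959118, minus strand) fell with both.
BNIP3: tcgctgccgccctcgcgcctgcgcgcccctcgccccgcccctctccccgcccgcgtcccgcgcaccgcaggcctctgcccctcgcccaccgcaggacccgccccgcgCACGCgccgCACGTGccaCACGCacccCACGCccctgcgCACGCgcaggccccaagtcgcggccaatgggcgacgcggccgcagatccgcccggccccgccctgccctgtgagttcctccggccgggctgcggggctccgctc
LDHA: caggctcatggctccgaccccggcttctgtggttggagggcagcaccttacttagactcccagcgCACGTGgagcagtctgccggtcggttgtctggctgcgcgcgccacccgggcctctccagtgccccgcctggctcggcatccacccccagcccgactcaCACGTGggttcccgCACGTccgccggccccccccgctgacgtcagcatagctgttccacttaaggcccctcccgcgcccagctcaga
ENO2: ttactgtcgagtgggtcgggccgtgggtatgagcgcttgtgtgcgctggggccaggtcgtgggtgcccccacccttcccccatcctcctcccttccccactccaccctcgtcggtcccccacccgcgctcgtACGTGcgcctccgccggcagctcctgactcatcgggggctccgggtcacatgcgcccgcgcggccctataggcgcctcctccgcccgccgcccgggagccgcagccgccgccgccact
KDM3A: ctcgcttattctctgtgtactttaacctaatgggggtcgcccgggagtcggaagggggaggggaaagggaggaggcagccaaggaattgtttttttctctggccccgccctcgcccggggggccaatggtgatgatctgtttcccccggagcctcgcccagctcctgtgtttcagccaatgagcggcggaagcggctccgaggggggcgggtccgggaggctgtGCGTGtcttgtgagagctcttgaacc
SLC2A1: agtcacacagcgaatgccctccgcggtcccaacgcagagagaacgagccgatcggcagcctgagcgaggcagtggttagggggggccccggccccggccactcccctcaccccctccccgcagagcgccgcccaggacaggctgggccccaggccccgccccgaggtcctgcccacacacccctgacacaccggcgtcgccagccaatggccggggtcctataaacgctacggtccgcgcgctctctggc
RefSeq's starts differ from the gene limits in GENCODE: by those limits the windows of ENO2, KDM3A and SLC2A1 lie inside the gene and those of BNIP3 and LDHA overlap its first bases. The capitals are letter matches only, and neither HIF binding nor oxygen was measured here.

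Libraries held between 40269708 and 48905602 expected counts, so that counting error is small for all but the weakest of these genes. Mitochondrial transcripts took 5.384% to 6.971% of counts. The 9 astrocyte markers summed to 6168 to 6472 CPM in vehicle and 5017 to 5709 CPM when treated (CPM, the usual unit of counts scaled to library size). Among them VIM (5987 ± 164 CPM in vehicle, SD, n = 3), GJA1, SOX9 and SLC1A3 were present, while GFAP, S100B, AQP4 and ALDH1L1 were nearly absent at vehicle means of at most 0.108 CPM. The 7 long nuclear RNAs, listed as a sign of RNA quality, summed to 1933 to 2003 CPM in vehicle and 2640 to 2952 CPM in the treated libraries. Of the 7, 5 rose in treated against vehicle, where 12.0% of all genes tested did. The myeloid list summed to 175.1 to 183.3 CPM in vehicle and 133 to 164.4 CPM when treated, nearly all of it CD68, with AIF1 and TYROBP at or near 0. The epithelial list summed to 241.5 to 248.4 CPM in vehicle and 129.4 to 231.8 CPM when treated, nearly all of it KRT18, with EPCAM and CDH1 near 0. The endothelial list summed to 30.21 to 32.85 CPM and 33.33 to 41.3 CPM, nearly all of it KDR, with CDH5 at 0 in vehicle, and the neuronal list spanned 180.1 to 182.2 CPM and 158.6 to 193.8 CPM. The part of these shifts in the results that follow was not tested. In bulk RNA, fewer cells of a kind and less RNA per cell cannot be told apart.

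Per kilobase of the longest annotated transcript, the vehicle levels of the 39 genes spanned more than 3 orders of magnitude. GAPDH stood highest at 2532 CPM per kilobase, followed by ENO1 at 1146, PKM at 1084, LDHA at 762, ALDOA at 694 and TPI1 at 438. HIF1A reached 263 CPM per kilobase, the highest of the regulators, and EPAS1 39.7. Among the other HIF targets STC2 was highest at 98.8 and ANKRD37 lowest at 2.45 CPM per kilobase. EGLN3, the hydroxylase that HIF itself induces, was lowest of all at 1.61. Summed over the 24 transporter and glycolytic genes, the level was 19100 to 19370 CPM in vehicle and 16860 to 17830 CPM in the treated libraries, without overlap. Summed over the 11 other HIF targets it was 1282 to 1292 CPM in vehicle and 1235 to 1414 CPM when treated, with overlap. GAPDH, PKM and ENO1 make up most of the first sum.

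Many of the abundant glycolytic mRNAs were lower in cells given either extract, by small amounts: those that passed the test fell by 0.11 to 0.28 on the log2 scale. The 4 main tests were treated against vehicle, a dose trend for each extract, and the difference between those trends. Treated against vehicle, a fit of 6 libraries against 3, asks what the treated libraries share, whatever the source. In it 14 of the 39 genes passed the edgeR quasi-likelihood test at an adjusted p under 0.05, 4 higher and 10 lower. Of all genes tested 25.3% passed, 12.0% higher and 13.3% lower. SLC2A1, GPI, PFKP, ALDOA, TPI1, GAPDH, PGAM1, ENO1, PKM and CA9 fell, and PFKM, LDHB, KDM3A and EGLN3 rose. By role, 2 of the 24 transporter and glycolytic genes rose and 9 fell, with a median log2 change of -0.055. For the 11 other HIF targets 1 rose and 1 fell, with a median of 0.049, and the median over all genes was 0.014. Whether the 2 lists differ was not tested. In 11 members all 6 treated libraries lay below all 3 vehicle libraries (13.7% of all genes did so), and in 2 members, PFKM and HK2, all 6 lay above (12.4% of all genes). Of those 11, HK1 is the one that missed the test (adjusted p = 0.1). The count was 9 without vehicle 1 (16.3% of all genes) and 9 without vehicle 3 (17.0%). With offsets for GC content and transcript length it was 9, with 4 higher and 5 lower (21.6% of all genes).

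**Figure D1:**
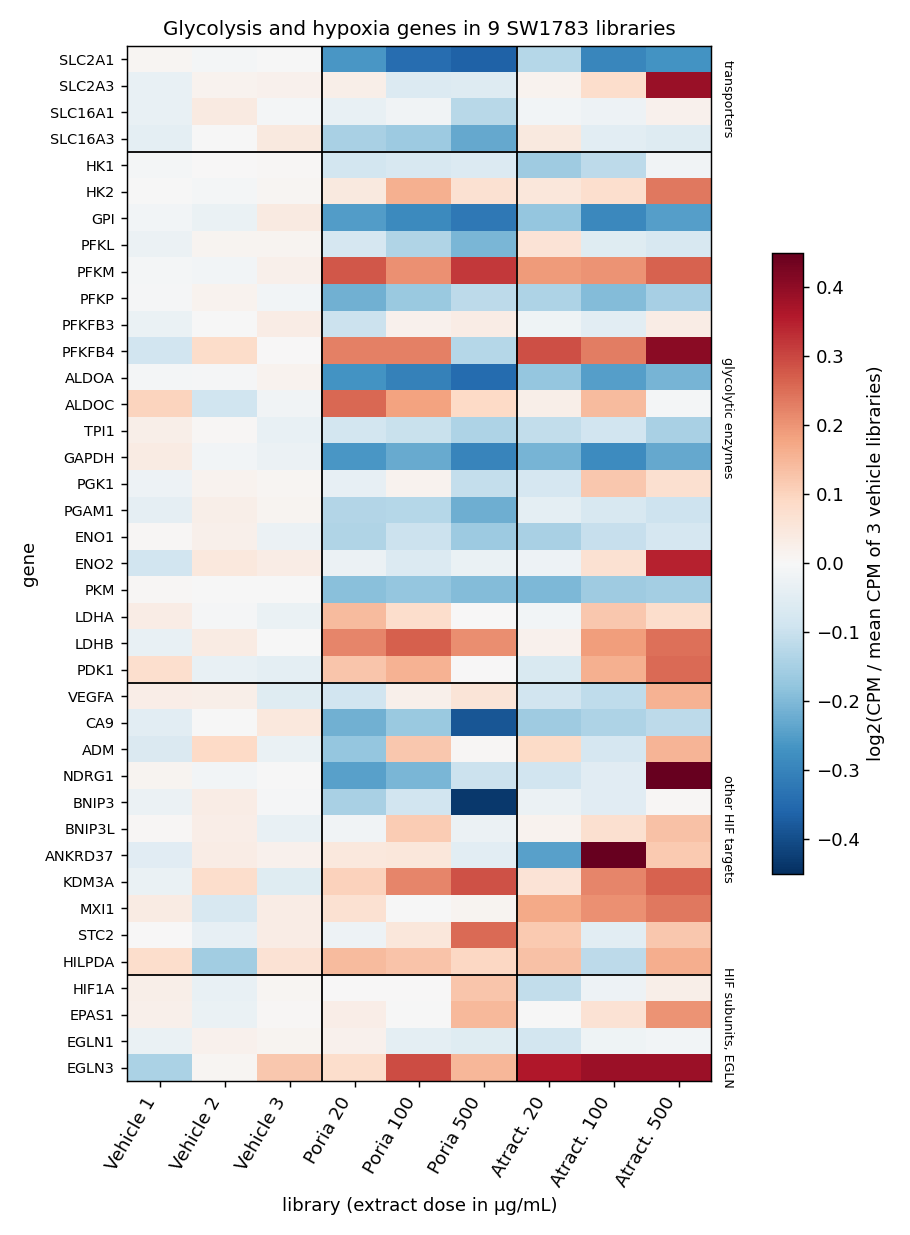
Log2 ratio of each library's CPM to the mean CPM of the 3 vehicle libraries, for the 39 genes in rows and the 9 libraries in columns, with colours that stop at 0.45 either way. SLC2A1, GPI, ALDOA, GAPDH and PKM are lower in all 6 treated columns, PFKM is higher in all 6, and the Atractylodis 500 µg/mL column carries high values of SLC2A3, ENO2 and NDRG1.

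Dose trends were fitted on all 9 libraries as a slope per extract over the steps vehicle, 20, 100 and 500 µg/mL, in log2 change per step, given ± SE. Both slopes use the same vehicle libraries. Along Poria doses 14 of 39 genes passed, 4 higher and 10 lower (20.8% of all genes, 9.16% higher and 11.6% lower), with a median slope of -0.009 against 0.001 for all genes. Along Atractylodis doses 13 passed, 9 higher and 4 lower (19.0% of all genes, 8.49% higher and 10.5% lower), with a median of 0.019 against 0.003. With offsets for GC content and transcript length Poria gave 10, 5 higher and 5 lower (15.5% of all genes), and Atractylodis 10, 8 higher and 2 lower (14.6%). The transporter and glycolytic genes gave 2 higher and 8 lower with Poria and 5 higher and 4 lower with Atractylodis. The other HIF targets gave 2 and 2 with Poria and 2 and 0 with Atractylodis. Without the Poria 500 µg/mL library 8 genes passed the Poria test (14.6% of all genes). Without the Atractylodis 500 µg/mL library 3 passed the Atractylodis test (5.67% of all genes), and without the 100 µg/mL library 8 did (11.6%). Leaving out vehicle 1, 2 or 3 left 6 each time with Atractylodis (11.5%, 12.4% and 11.9% of all genes). Taken as groups without dose order, the 3 Poria libraries against vehicle gave 16 genes, 3 higher and 13 lower (27.3% of all genes), and the 3 Atractylodis libraries 14, 6 higher and 8 lower (23.3%).

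Of the transporters, the main glucose carrier fell with both extracts. SLC2A1 (GLUT1; ENSG00000117394, chr1:42925375-42959176, minus strand, GENCODE on GRCh38) stood at 212, 209 and 210.3 CPM in the vehicle libraries, 176, 166 and 163 CPM with Poria at 20, 100 and 500 µg/mL and 193, 172 and 174 CPM with Atractylodis at the same doses. All 6 treated libraries lay below the vehicle range, and the lowest was Poria at 500 µg/mL. The change between treated and vehicle was -0.28 ± 0.044 (log2, SE; 0.827-fold, adjusted p = 0.00022). The slope was -0.13 ± 0.020 along Poria (adjusted p = 0.00033) and -0.095 ± 0.020 along Atractylodis (adjusted p = 0.0038). SLC2A3 (GLUT3), the high-affinity neuronal type carrier, took another course. It stood at 32.1, 33.2 and 33.3 CPM in vehicle, 33.5, 31.5 and 31.6 CPM along Poria and 33.2, 34.7 and 43.0 CPM along Atractylodis, so that the Atractylodis 500 µg/mL library alone lay far above the rest. Its Atractylodis slope passed at 0.11 ± 0.023 (adjusted p = 0.0051), but not without that library (adjusted p = 0.59). SLC16A3 (MCT4), which exports lactate, stood at 279.7, 288 and 298 CPM in vehicle, 261, 257 and 246 CPM along Poria and 298, 279 and 277 CPM along Atractylodis. The Poria libraries lay below vehicle. Of the Atractylodis libraries only that at 20 µg/mL lay in the vehicle range, and those at 100 and 500 µg/mL lay just below it. SLC16A3 fell along Poria with a slope of -0.083 ± 0.017 (adjusted p = 0.0031), a call lost with GC and length offsets (adjusted p = 0.064). SLC16A1 (MCT1), the carrier of lactate and pyruvate, was 151 ± 3.97 CPM in vehicle (SD, n = 3) and 139 to 153 CPM when treated, and passed none of the 4 main tests.

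In the preparatory steps of glycolysis GPI and ALDOA fell with both extracts while the phosphofructokinase subunits parted. GPI, which turns glucose 6-phosphate into fructose 6-phosphate, stood at 428, 423 and 445 CPM in vehicle, 363, 354 and 346 CPM along Poria and 383, 353 and 364 CPM along Atractylodis. All treated values lay below vehicle, with a treated against vehicle change of -0.26 ± 0.038 (adjusted p = 0.00011) and slopes of -0.11 ± 0.021 with Poria (adjusted p = 0.0016) and -0.089 ± 0.021 with Atractylodis (adjusted p = 0.0072). ALDOA, the main aldolase, stood at 1746, 1751 and 1776 CPM in vehicle, 1458, 1424 and 1382 CPM along Poria and 1558, 1479 and 1521 CPM along Atractylodis. It too lay below vehicle in all treated libraries, with a log2 change of -0.26 ± 0.042 (adjusted p = 0.00026). Its Poria slope was -0.12 ± 0.022 (adjusted p = 0.0012) and its Atractylodis slope -0.074 ± 0.021 (adjusted p = 0.023). The latter was lost without any 1 vehicle library (adjusted p = 0.071 to 0.083), without the 100 µg/mL library (0.097) or the 500 µg/mL library (0.05), and with GC and length offsets (0.096). ALDOC, the brain type aldolase, was low at 6.10 ± 0.410 CPM in vehicle (SD, n = 3), spanned 6.07 to 7.31 CPM when treated and passed none of the 4 main tests.

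Hexokinase traps glucose as glucose 6-phosphate. HK1, the main form here, was 369 ± 1.98 CPM in vehicle (SD, n = 3) and 330.3 to 365 CPM when treated, and missed the 4 main tests. HK2, the inducible form, stood at 52.8, 52.6 and 53.3 CPM in vehicle, 54.6, 59.1 and 55.5 CPM along Poria and 54.8, 55.7 and 62.3 CPM along Atractylodis. All 6 treated values lay above vehicle, yet treated against vehicle did not pass (0.11 ± 0.045, adjusted p = 0.089). With GC and length offsets that change was 0.13 ± 0.044 and passed (adjusted p = 0.041). The Atractylodis slope passed at 0.065 ± 0.019 (adjusted p = 0.022), though not without the 500 µg/mL library (adjusted p = 0.53) or without any 1 vehicle library (0.052 to 0.061).

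Phosphofructokinase is built from muscle, liver and platelet type subunits, PFKM, PFKL and PFKP. PFKM stood at 35.8, 35.8 and 36.6 CPM in vehicle, 43.8, 41.6 and 45.0 CPM along Poria and 41.2, 41.5 and 43.3 CPM along Atractylodis, with every treated library above vehicle. It rose by 0.25 ± 0.042 in treated against vehicle (1.19-fold, adjusted p = 0.00041) and along both extracts, with 0.099 ± 0.023 per step for Poria (adjusted p = 0.0057) and 0.080 ± 0.023 for Atractylodis (adjusted p = 0.022). The Atractylodis slope missed the threshold without any 1 vehicle library (adjusted p = 0.062 to 0.076), without the 100 µg/mL library (0.058) and without the 500 µg/mL library (0.13). PFKP, the most abundant subunit, stood at 253, 257 and 252 CPM in vehicle, 219, 226 and 234 CPM along Poria and 231, 222 and 229 CPM along Atractylodis. Every treated value was below vehicle, and the change in treated against vehicle was -0.16 ± 0.034 (adjusted p = 0.0019), or -0.082 ± 0.032 with GC and length offsets (adjusted p = 0.079). PFKL stood at 137, 141 and 141 CPM in vehicle, 132, 127 and 121 CPM along Poria and 146, 134 and 133 CPM along Atractylodis. It fell along Poria (-0.074 ± 0.016, adjusted p = 0.0044), but not without the 500 µg/mL library (0.052) or with GC and length offsets (0.12). The bifunctional enzymes that set the phosphofructokinase activator passed none of the 4 main tests: PFKFB3 was 87.0 ± 1.89 CPM in vehicle (SD, n = 3) and 81.3 to 89.1 CPM when treated, and PFKFB4 25.8 ± 1.52 and 23.6 to 34.2 CPM.

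The lower enzymes are among the most abundant mRNAs of these cells, and reads of GAPDH, PGK1, PGAM1, ENO1, TPI1, PKM and LDHA may in part be shared with their processed pseudogenes. GAPDH stood at 4874, 4702 and 4664 CPM in vehicle, 3957, 4056 and 3866 CPM along Poria and 4108, 3903 and 4048 CPM along Atractylodis. Every treated library was lower than every vehicle library, with a log2 change of -0.25 ± 0.040 (0.841-fold, adjusted p = 0.00021). The slopes were -0.093 ± 0.024 for Poria (adjusted p = 0.0096) and -0.083 ± 0.023 for Atractylodis (adjusted p = 0.02), and both missed with GC and length offsets (adjusted p = 0.17 and 0.15). The Atractylodis slope also missed without any 1 vehicle library (0.06 to 0.08) or the 100 µg/mL library (0.091). GAPDH is widely used as a reference gene for expression.

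PKM, pyruvate kinase, stood at 3278, 3265 and 3265 CPM in vehicle, 2871, 2898 and 2853 CPM along Poria and 2845, 2924 and 2939 CPM along Atractylodis. The treated values lay in a narrow band below vehicle with no order over the doses, and the change was -0.18 ± 0.037 (adjusted p = 0.0018). Its Poria slope (-0.062 ± 0.021, adjusted p = 0.048) was lost without any 1 vehicle library (0.13 to 0.14), without the 100 or 500 µg/mL library (0.11 and 0.097) and with GC and length offsets (0.18). TPI1, triose phosphate isomerase, stood at 786, 775 and 755 CPM in vehicle, 729, 721 and 701 CPM along Poria and 714, 728 and 697 CPM along Atractylodis, lower in all treated libraries with a log2 change of -0.11 ± 0.035 (adjusted p = 0.029). ENO1, the main enolase, stood at 2929, 2969 and 2865 CPM in vehicle, 2661, 2733 and 2610 CPM along Poria and 2637, 2716 and 2774 CPM along Atractylodis, again lower in all, with a change of -0.12 ± 0.039 (adjusted p = 0.03). PGAM1, phosphoglycerate mutase, stood at 532, 556 and 552 CPM in vehicle, 498, 500.4 and 469.8 CPM along Poria and 530.4, 519.9 and 512 CPM along Atractylodis, lower in all with a change of -0.11 ± 0.040 (adjusted p = 0.047), and it fell along Poria (-0.070 ± 0.017, adjusted p = 0.0064). These 3 calls of treated against vehicle were fragile: all missed without any 1 vehicle library (adjusted p = 0.05 to 0.16) and with GC and length offsets (0.65, 0.22 and 0.26). ENO1 also missed without the Poria 20 or Atractylodis 100 µg/mL library (0.052 and 0.053), and PGAM1 without any 1 Poria library (0.056 to 0.085) or the Atractylodis 100 µg/mL library (0.055). The Poria slope of PGAM1 missed without the 500 µg/mL library (-0.071, 0.077) and with GC and length offsets (-0.040, 0.071). PGK1, phosphoglycerate kinase, was 944 ± 13.6 CPM in vehicle (SD, n = 3), spanned 877 to 1027 CPM when treated and passed none of the 4 main tests.

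ENO2, the neuron type enolase, had, like SLC2A3, its highest level at 500 µg/mL of Atractylodis. It stood at 50.3, 55.1 and 54.5 CPM in vehicle, 52.3, 51.1 and 52.2 CPM along Poria and 52.4, 55.9 and 67.7 CPM along Atractylodis, with only the Atractylodis 500 µg/mL library clearly above the rest. The Atractylodis slope was 0.097 ± 0.022 (adjusted p = 0.0066), and 0.030 without that library (adjusted p = 0.62).

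At the branch from pyruvate, LDHB rose with both extracts and LDHA passed none of the main tests. LDHA, a classical HIF target, stood at 1886, 1835 and 1804 CPM in vehicle, 2033, 1946 and 1846 CPM along Poria and 1824, 2003 and 1945 CPM along Atractylodis. Treated and vehicle libraries overlapped, and treated against vehicle gave 0.070 ± 0.043 (adjusted p = 0.26). LDHB, the form that favours pyruvate, stood at 265, 278 and 271 CPM in vehicle, 316, 327 and 314 CPM along Poria and 275, 309 and 322 CPM along Atractylodis. All but the Atractylodis 20 µg/mL library lay above vehicle, with a rise of 0.20 ± 0.047 in treated against vehicle (adjusted p = 0.0051) and slopes of 0.091 ± 0.021 for Poria (adjusted p = 0.0057) and 0.073 ± 0.021 for Atractylodis (adjusted p = 0.021). The Atractylodis slope missed without vehicle 1 or 3 (0.077 and 0.064) and without the 100 or 500 µg/mL library (0.071 and 0.26). PDK1, which keeps pyruvate out of mitochondria, was 33.8 ± 1.59 CPM in vehicle (SD, n = 3) and 32.2 to 40.3 CPM when treated and passed none of the 4 main tests.

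**Figure D2:**
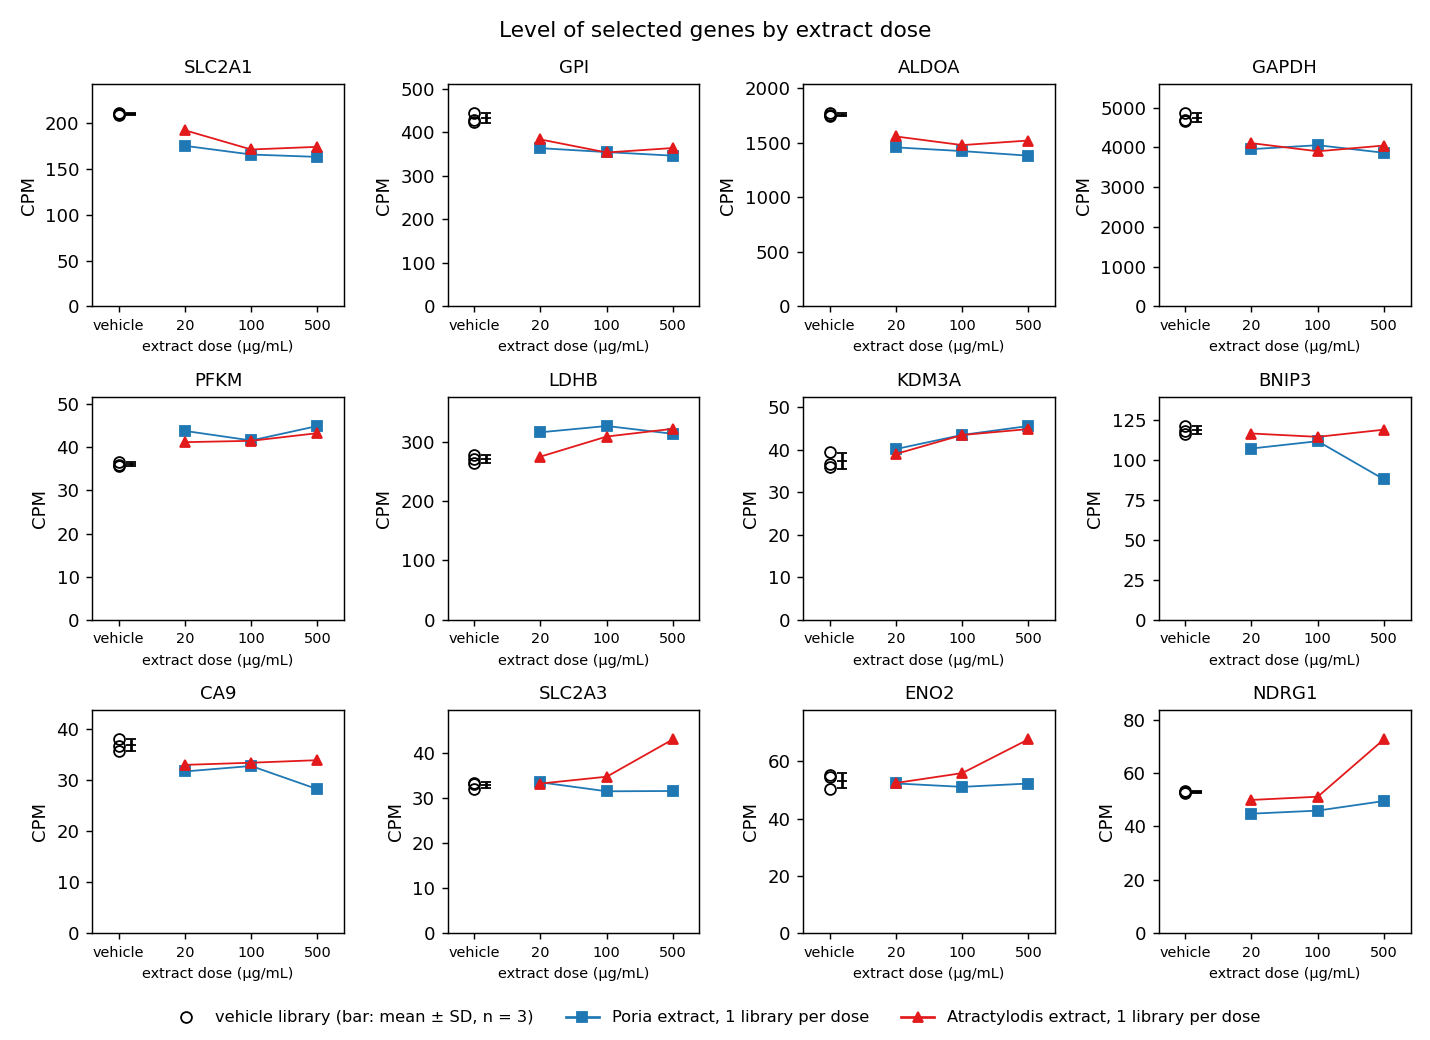
CPM of 12 genes by extract dose, with vehicle libraries as circles beside their mean ± SD (n = 3), Poria as squares and Atractylodis as triangles, 1 library per dose, and axes that start at 0. SLC2A1, GPI, ALDOA and GAPDH lie below vehicle at each dose of both extracts and PFKM above it, BNIP3 and CA9 are lowest at Poria 500 µg/mL, and SLC2A3, ENO2 and NDRG1 are highest at Atractylodis 500 µg/mL.

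Among the other HIF targets the calls went both ways in treated against vehicle and along Poria. Along Atractylodis 9 of the 11 slopes were positive and 2 negative, where 9474 of the 18356 genes tested had a positive slope. The median was 0.039 against 0.003 for all genes. Without the Atractylodis 500 µg/mL library 5 of the 11 slopes were positive and 6 negative. CA9, a carbonic anhydrase of the cell surface and a textbook marker of hypoxia, stood at 35.6, 36.7 and 38.0 CPM in vehicle, 31.7, 32.7 and 28.2 CPM along Poria and 33.0, 33.4 and 33.9 CPM along Atractylodis. All 6 treated libraries lay below vehicle, with a log2 change of -0.20 ± 0.053 (adjusted p = 0.012), and the Poria slope was -0.11 ± 0.023 (adjusted p = 0.0035). Without vehicle 3 the first call was lost (0.072), without the Poria 500 µg/mL library the second (0.11), and both with GC and length offsets (0.19 and 0.13). KDM3A, a histone demethylase, stood at 36.6, 39.4 and 36.0 CPM in vehicle, 40.1, 43.5 and 45.6 CPM along Poria and 39.0, 43.4 and 44.8 CPM along Atractylodis. Its level climbed with dose in both series, with slopes of 0.10 ± 0.019 (adjusted p = 0.0018) and 0.093 ± 0.020 (adjusted p = 0.0041) and a treated against vehicle change of 0.20 ± 0.053 (adjusted p = 0.011). The lowest treated library overlapped vehicle 2, and the treated against vehicle call was lost without vehicle 1 or 3 (0.071 and 0.082) and with GC and length offsets (0.088). Without the 500 µg/mL library the Atractylodis slope was 0.10, as steep as with it, at an adjusted p of 0.068.

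BNIP3, a mitophagy receptor, fell along Poria. It stood at 117, 121 and 118 CPM in vehicle, 107, 112 and 87.9 CPM along Poria and 117, 115 and 119 CPM along Atractylodis, so that Poria at 500 µg/mL was far below all others. The slope was -0.12 ± 0.022 (adjusted p = 0.0014), and -0.052 without that library (adjusted p = 0.21). Its relative BNIP3L (NIX) was 122 ± 2.76 CPM in vehicle (SD, n = 3), spanned 119.7 to 133 CPM when treated and passed none of the 4 main tests. STC2, a secreted glycoprotein, stood at 530.1, 516 and 541 CPM in vehicle, 521, 548 and 631 CPM along Poria and 574, 512 and 575 CPM along Atractylodis, with Poria 500 µg/mL the highest. Its Poria slope (0.067 ± 0.022, adjusted p = 0.04) was lost without that library (0.82) or any 1 vehicle library (0.055 to 0.1). MXI1, a MYC antagonist, stood at 11.5, 10.7 and 11.5 CPM in vehicle, 11.8, 11.2 and 11.3 CPM along Poria and 12.6, 12.9 and 13.2 CPM along Atractylodis, with the Atractylodis libraries all above vehicle. Its Atractylodis slope passed at 0.081 ± 0.028 (adjusted p = 0.047) by a narrow margin, and DESeq2's Wald test gave an adjusted p of 0.092. Leaving out any 1 vehicle library gave 0.091 to 0.14, and leaving out the 100 or 500 µg/mL library 0.11 or 0.16.

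VEGFA, the vessel growth factor, stood at 361, 361 and 341 CPM in vehicle, 334, 359.8 and 369 CPM along Poria and 334, 327 and 395 CPM along Atractylodis. Only the Atractylodis 500 µg/mL library and the Poria 500 µg/mL library exceeded the vehicle range, and treated against vehicle gave -0.005 ± 0.053 (adjusted p = 0.96). NDRG1, a stress-responsive gene, passed none of the 4 main tests, and its single values are given because 1 library stood apart once they were seen. It was 53.5, 52.6 and 53.0 CPM in vehicle, 44.8, 46.0 and 49.6 CPM along Poria and 50.0, 51.2 and 72.7 CPM along Atractylodis. The other 5 treated libraries lay below vehicle. ADM, which encodes a vasodilator peptide, was 12.1 ± 0.694 CPM in vehicle (SD, n = 3) and 10.7 to 13.4 CPM when treated. HILPDA, a lipid droplet protein, was 9.02 ± 0.803 and 8.32 to 10.1 CPM, and ANKRD37 3.54 ± 0.109 and 2.98 to 5.16 CPM. None of these 3 passed a main test, and at such levels counting error adds to the spread.

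Of the regulators, HIF1A is controlled mainly as a protein, and its mRNA passed none of the 4 main tests. It stood at 1058, 1015 and 1046 CPM in vehicle, 1042, 1041 and 1133 CPM along Poria and 963, 1024 and 1059 CPM along Atractylodis, and gave 0.006 ± 0.045 in treated against vehicle (adjusted p = 0.94). EPAS1 (HIF-2 alpha) stood at 208, 201 and 206 CPM in vehicle, 209, 205 and 227 CPM along Poria and 205, 215 and 236 CPM along Atractylodis, highest at the top dose of each extract. It rose along Atractylodis (0.061 ± 0.017, adjusted p = 0.02), a call lost without the 500 µg/mL library (0.51) or vehicle 2 (0.06). With GC and length offsets its Poria slope passed too (0.056 ± 0.015, adjusted p = 0.02). EGLN3, the hydroxylase that feeds back on HIF, stood at 4.15, 4.61 and 4.98 CPM in vehicle, 4.83, 5.61 and 5.08 CPM along Poria and 5.88, 5.98 and 5.98 CPM along Atractylodis. The 3 Atractylodis libraries lay above vehicle at nearly the same level, whereas the lowest Poria value lay within its range. It rose by 0.28 ± 0.093 in treated against vehicle (adjusted p = 0.034) and along Atractylodis (0.14 ± 0.044, adjusted p = 0.033). At a level near 5 CPM these calls were fragile: treated against vehicle missed without vehicle 1 or 2 (0.2 and 0.095), Poria 100 (0.057), Atractylodis 100 (0.068) or Atractylodis 500 µg/mL (0.058), and the slope without any 1 vehicle library (0.054 to 0.11) or without the 100 or 500 µg/mL library (0.096 and 0.079). EGLN1, the main oxygen-sensing hydroxylase, was 64.0 ± 1.14 CPM in vehicle (SD, n = 3), 60.4 to 64.8 CPM when treated, and passed none of the 4 main tests.

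The 2 extracts were set against each other by the difference of their slopes, Poria minus Atractylodis, within the same fit. It passed for 2 of the 39 genes, SLC2A3 (-0.12 ± 0.026, adjusted p = 0.033) and BNIP3 (-0.11 ± 0.023, adjusted p = 0.032), where 1.16% of all genes passed. For SLC2A3 the slope was -0.012 with Poria and 0.11 with Atractylodis, and for BNIP3 -0.12 and -0.009. With either 500 µg/mL library left out, 0 of all genes passed the edgeR difference test. At an unadjusted p under 0.05 stood 7 members without Atractylodis 500 µg/mL (7.71% of all genes) and 8 without Poria 500 µg/mL (7.6%). Without Atractylodis 500 µg/mL the difference was -0.054 for SLC2A3 (adjusted p = 0.69) and -0.087 for BNIP3 (0.6). Without Poria 500 µg/mL it was -0.11 for SLC2A3 (0.51) and -0.052 for BNIP3 (0.68). Leaving out any 1 vehicle library gave an adjusted p of 0.051 to 0.053 for both, leaving out Poria 100 µg/mL gave 0.072 for SLC2A3, and leaving out Atractylodis 100 µg/mL gave 0.054 for BNIP3. ENO2 (-0.10 ± 0.025, adjusted p = 0.058) and SLC16A3 (-0.068 ± 0.019, adjusted p = 0.11) missed the threshold. Of the genes that fell in both series, SLC2A1, GPI, ALDOA and GAPDH gave slope differences of -0.036 ± 0.022, -0.020 ± 0.023, -0.044 ± 0.023 and -0.010 ± 0.026, none past the test.

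**Figure D3:**
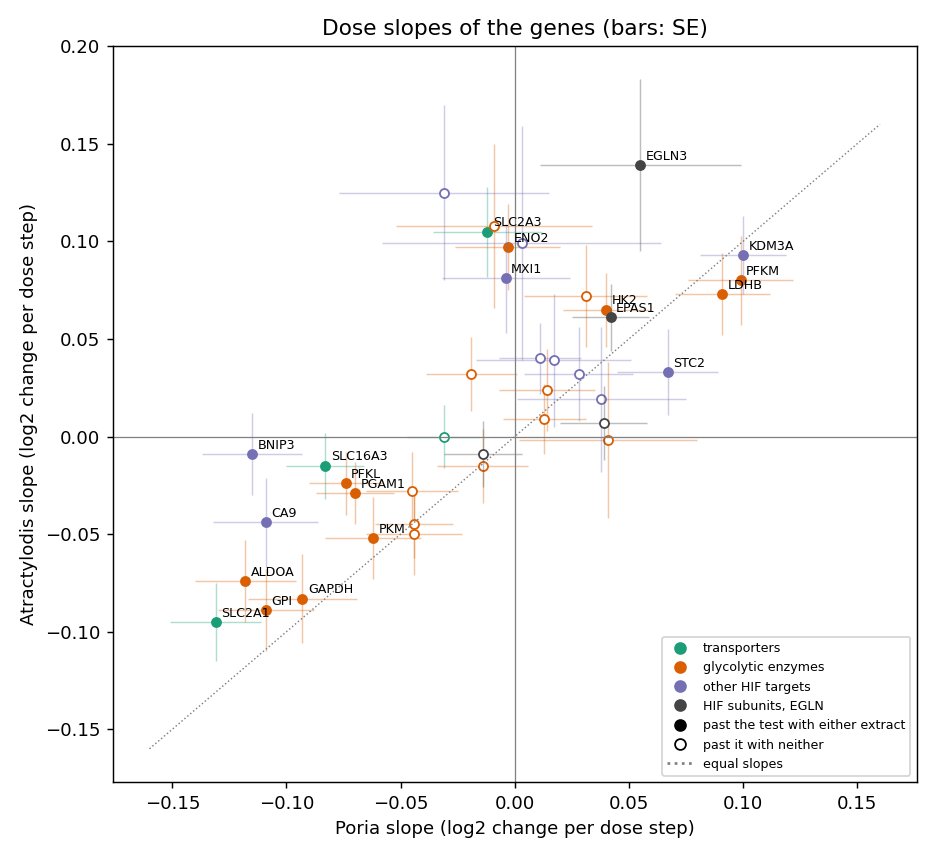
Slope along Poria (x axis) against slope along Atractylodis (y axis) in log2 change per dose step for the 39 genes, with bars of 1 SE, filled where either slope passed the test, and a dotted line of equal slopes. SLC2A1, GPI, ALDOA and GAPDH lie at the lower left and KDM3A, PFKM and LDHB at the upper right near the dotted line, BNIP3 lies far left at an Atractylodis slope of -0.009, and SLC2A3 and ENO2 lie high at Poria slopes of -0.012 and -0.003; the axes share the vehicle libraries.

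Because vehicle and treated libraries differed as groups, the slope was also set by the 3 treated doses alone, with an offset for each extract. Along Poria 0 of the 39 genes then passed the edgeR test (2.45% of all genes), with 10 of 39 at an unadjusted p under 0.05, where 15.4% of all genes were. No other tool was run in this setting. Along Atractylodis 6 passed, all higher (4.04% of all genes, 1.50% higher). They were SLC2A3 (0.19 ± 0.037 per step, adjusted p = 0.0055), ENO2 (0.19 ± 0.035, 0.0037), NDRG1 (0.28 ± 0.046, 0.0067), LDHB (0.11 ± 0.028, 0.021), PDK1 (0.16 ± 0.039, 0.021) and EPAS1 (0.10 ± 0.028, 0.042). VEGFA gave 0.12 ± 0.034 with an adjusted p of 0.05, which did not pass. Each slope rests on 1 library per dose. For SLC2A3, ENO2 and NDRG1 most of the rise came at the 500 µg/mL library, and for LDHB and PDK1 between 20 and 100 µg/mL. SLC2A1, GPI, ALDOA and GAPDH gave -0.072, -0.038, -0.018 and -0.011 along the Atractylodis doses and -0.052, -0.035, -0.039 and -0.017 along the Poria doses, none past the test. In log2 ratio to the vehicle mean, the 20 µg/mL libraries already stood at -0.26, -0.25, -0.27 and -0.26 with Poria and -0.13, -0.17, -0.17 and -0.21 with Atractylodis.

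The high Atractylodis dose stood out for the HIF targets outside glycolysis. In that 1 library 9 of the 11 other HIF targets lay above all 3 vehicle libraries, where 38.2% of all genes did, and their median log2 ratio to the vehicle mean was 0.153 against 0.006 for all genes. At 100 µg/mL of the same extract 4 of 11 lay above and 6 below, where 36.9% and 35.3% of all genes did. At 20 µg/mL 3 lay above and 5 below (35.3% and 33.6% of all genes). With Poria at 20, 100 and 500 µg/mL, 4, 6 and 4 of the 11 lay above (35.3%, 37.0% and 37.7% of all genes). Below lay 5, 3 and 3 of them (34.3%, 34.9% and 36.7%). In the Poria 500 µg/mL library 16 of the 24 transporter and glycolytic genes lay below all vehicle libraries, where 36.7% of all genes did, with a median log2 ratio of -0.121. The other treated libraries had nearly as many below. There were 14 and 13 with Poria at 20 and 100 µg/mL, and 12, 13 and 12 with Atractylodis at 20, 100 and 500 µg/mL. Of all genes 33.6% to 35.9% did so in these libraries. These are single libraries, so no test was made, and a library effect and a dose effect cannot be told apart.

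Counts of one form per 100 counts of its partner compare the 2 inside each library, free of scaling between libraries. They are not free of a shift linked to GC content. PFKM per 100 PFKP counts was 14.2, 13.9 and 14.5 in vehicle, 20.0, 18.4 and 19.2 along Poria and 17.9, 18.7 and 18.9 along Atractylodis, above vehicle in all 6. Per 100 PFKL counts it was 25.8 ± 0.380 (SD, n = 3) in vehicle and 28.3 to 37.1 when treated. SLC2A3 per 100 SLC2A1 counts was 15.2, 15.9 and 15.8 in vehicle, 19.1, 19.0 and 19.3 along Poria and 17.3, 20.3 and 24.7 along Atractylodis. HK2 per 100 HK1 was 14.3 ± 0.103 in vehicle and 15.7 to 17.1 when treated, and ALDOC per 100 ALDOA 0.347 ± 0.0246 and 0.399 to 0.501, both without overlap. LDHB per 100 LDHA was 14.8 ± 0.610 and 15.1 to 17.0, ENO2 per 100 ENO1 1.82 ± 0.0974 and 1.87 to 2.44, and both overlapped vehicle. EPAS1 per 100 HIF1A counts was 19.7 ± 0.0701 in vehicle, 20.1, 19.7 and 20.0 along Poria and 21.3, 20.9 and 22.3 along Atractylodis, with the Atractylodis libraries highest. These ratios were not tested and show unequal change, not which partner moved. In most pairs without overlap the first gene has the lower GC content. PFKM has 51.5% against 57.5% for PFKP and 64.1% for PFKL, SLC2A3 45.8% against 54.8% for SLC2A1, and HK2 51.2% against 53.0% for HK1. ALDOC has the higher, 56.8% against 54.3% for ALDOA. The part of GC content in these ratios was not tested.

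**Figure D4:**
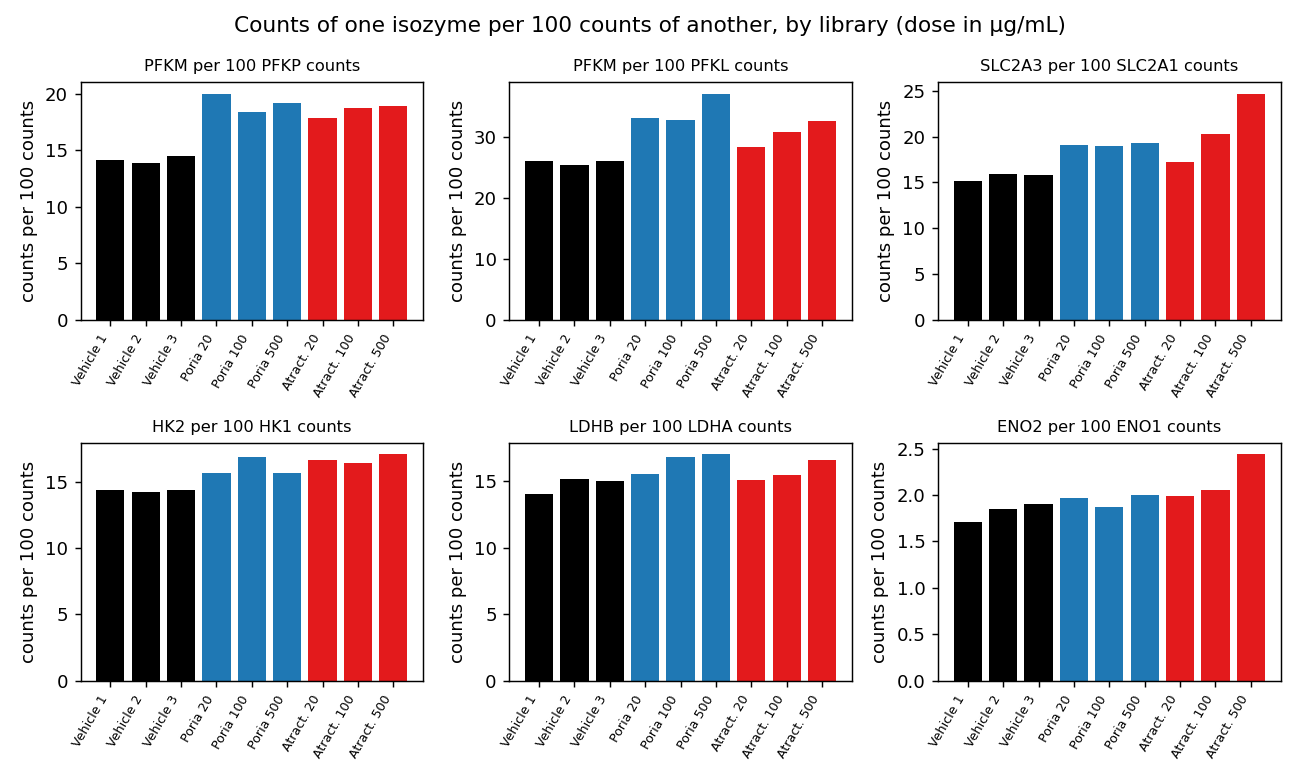
Counts of one gene per 100 counts of its partner in each of the 9 libraries, as bars from 0 (black vehicle, blue Poria, red Atractylodis, doses in µg/mL), for 5 isozyme pairs and the transporter pair SLC2A3 and SLC2A1. PFKM per 100 PFKP is 17.9 to 20.0 in the treated libraries against a vehicle mean of 14.2, while LDHB per 100 LDHA overlaps between the groups.

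GC-rich members tended to have lower values in the treated libraries. Over the 39 genes the Spearman rho of the treated against vehicle change with GC content was -0.479, and over all genes tested -0.298, as a description across genes that share libraries. Members that rose had a median GC content of 47.9% and those that fell 54.5%. With offsets for GC content and transcript length, SLC2A1 (-0.21 ± 0.036, adjusted p = 0.00053), GPI (-0.22 ± 0.032, 0.00017), ALDOA (-0.19 ± 0.036, 0.001), GAPDH (-0.16 ± 0.036, 0.004) and PKM (-0.12 ± 0.034, 0.016) still fell in treated against vehicle. PFKM (0.29 ± 0.039, 8.5e-05), LDHB (0.20 ± 0.045, 0.0052) and EGLN3 (0.31 ± 0.093, 0.026) still rose and HK2 joined them. Of the 14 members called along Poria 8 were also called with the offsets, and SLC16A1 (-0.052 ± 0.015, adjusted p = 0.029) and EPAS1 were added. Of the 13 called along Atractylodis 10 were also called.

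**Figure D5:**
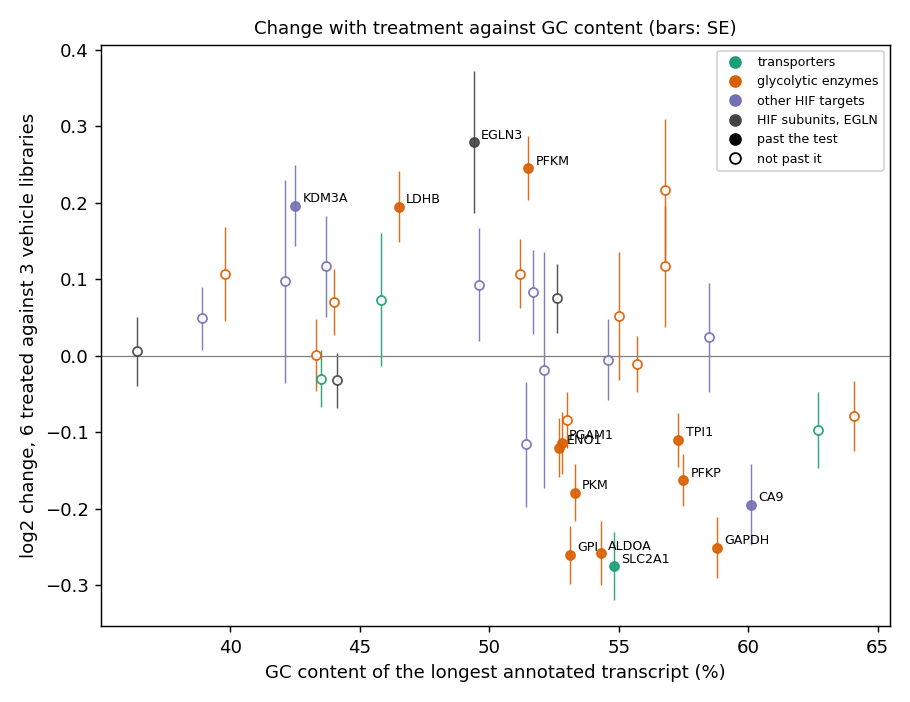
Log2 change between 6 treated and 3 vehicle libraries (y axis, bars of 1 SE) against the GC content of the longest annotated transcript (x axis, percent) for the 39 genes, filled where the change passed the test. Genes that rose lie between 42.5% and 51.5% GC, and genes that fell lie between 52.7% and 60.1% GC.

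Further genes of sugar metabolism gave a mixed picture. The shares of all genes to read these lists against are 20.8% along Poria, 19.0% along Atractylodis and 25.3% in treated against vehicle. Of 29 tested genes of other glycolytic steps and branches, 4 rose and 5 fell along Poria, 5 rose and 3 fell along Atractylodis, and 3 rose and 4 fell in treated against vehicle. G6PC3, a glucose 6-phosphatase (128 ± 2.76 CPM in vehicle, SD, n = 3), fell along Poria (-0.14 ± 0.017, adjusted p = 8.8e-05) and Atractylodis (-0.078 ± 0.017, 0.0051), and GYS1, muscle type glycogen synthase, did so by -0.12 ± 0.016 (0.00015) and -0.077 ± 0.016 (0.0034). SLC2A6, a lysosomal sugar carrier, fell along Poria (-0.13 ± 0.023, 0.00088) and Atractylodis (-0.079 ± 0.023, 0.026). SLC2A13, a proton-coupled inositol carrier, rose along Atractylodis (0.14 ± 0.023, 0.001). Of 14 genes for the entry of pyruvate into mitochondria, its use there or the control of that use, 1 rose and 2 fell along Poria, 1 rose along Atractylodis, and 1 rose in treated against vehicle. DLD, the shared E3 subunit of the dehydrogenase complexes, rose along Poria (0.081 ± 0.022, 0.013), whereas PC, pyruvate carboxylase (-0.083 ± 0.025, 0.026), and MPC1, a subunit of the mitochondrial pyruvate carrier (-0.063 ± 0.019, 0.029), fell. PDP1, which reactivates pyruvate dehydrogenase, rose along Atractylodis (0.052 ± 0.017, 0.036).

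A wider list of 34 hypoxia targets split both ways as well, read against the same shares of all genes, with 5 higher and 6 lower along Poria, 9 and 8 along Atractylodis, and 5 and 10 in treated against vehicle. DDIT4, an mTORC1 inhibitor that answers to many stresses, rose along Atractylodis (0.21 ± 0.022, adjusted p = 6.1e-05) and gave 0.058 ± 0.023 along Poria (0.083), with a slope difference that passed (-0.15 ± 0.025, 0.0072). CA12, another carbonic anhydrase of the cell surface, rose along both (0.069 ± 0.021, 0.024, and 0.16 ± 0.020, 0.00018), where CA9 fell along Poria. MIF, a cytokine, fell along Poria (-0.14 ± 0.019, 0.00015) and Atractylodis (-0.080 ± 0.019, 0.0085), as did P4HB, a collagen hydroxylase subunit (-0.13 ± 0.019, 2e-04, and -0.058 ± 0.019, 0.039). Of 13 tested genes of oxygen sensing, 1 rose and 2 fell along Poria, 2 and 2 along Atractylodis, and 2 and 3 in treated against vehicle. VHL, a subunit of the ligase that marks HIF, rose along Poria (0.062 ± 0.021, 0.04) and Atractylodis (0.069 ± 0.021, 0.028), and CUL2, the scaffold of that ligase, along Atractylodis (0.063 ± 0.020, 0.033). ELOB, an adaptor of the same ligase, fell along both (-0.19 ± 0.032, 0.0024, and -0.16 ± 0.032, 0.0066), and so did the coactivator CREBBP (-0.089 ± 0.017, 0.0015, and -0.095 ± 0.017, 0.0015).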

How the data were processed

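RNA of 9 SW1783 libraries (3 vehicle, 3 Poria doses, 3 Atractylodis doses) was sequenced as 100 base reads. Per the submitters' processing notes, which name tools and not their settings, the tools were FastQC 0.11.9, Trim Galore 0.6.5, STAR 2.7.3a and RSEM 1.3.3, and the build hg38. Which annotation release was used is not given in the sources used here. Gene values came from 1 table that the authors deposited, with expected counts per gene. These are estimates that share out reads between similar genes, so that values of genes with near copies depend on that step. Of its value columns 270 belong to no sample described here and were not used. Of 60675 genes 57055 were paired with a symbol and 3620 were not.

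Expected counts were rounded to whole numbers. Genes with low counts were filtered with edgeR 4.0.16 (filterByExpr over the 7 groups, minimum count 10, minimum total 15), which left 18356. TMM normalization and the quasi-likelihood test followed, in R 4.3.3, with Benjamini-Hochberg adjustment over all 18356 genes and a threshold of 0.05. The trend fit had 6 residual degrees of freedom and the treated against vehicle fit 7. SEs were taken from the log2 change and its F statistic. CPM were scaled by the tested genes' total times the TMM factor. The fits were also run on simulated counts with known changes in some genes and no shift between the groups linked to GC content. That run cannot speak to such a shift in these libraries. Alternatives were DESeq2 1.42.0 (size factors, and its Wald test), no count filter, each library left out, offsets for GC content and transcript length, dose itself in place of the step, treated doses only, and each extract's libraries alone. A combination of treated doses only with GC and length offsets was chosen after seeing the data. All 39 members are named, with single library values for those past the threshold in any main test and for HIF1A, EPAS1, LDHA and VEGFA. Of each other list up to 4 genes with the smallest trend p past the threshold are named. The members, lists and tests were chosen with earlier results of these data known.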

Additional observations from a re-analysis of the deposited data

Results flagged for a closer look

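For 2 genes the slope over vehicle and doses differed between the extracts by a test of the difference itself. SLC2A3, the GLUT3 glucose carrier, had a slope difference, Poria minus Atractylodis, of -0.12 ± 0.026 per dose step (log2, SE; edgeR quasi-likelihood test, adjusted p = 0.033), from slopes of -0.012 and 0.11. BNIP3, the mitophagy receptor, had a slope difference of -0.11 ± 0.023 (adjusted p = 0.032), from slopes of -0.12 and -0.009. Over the alternatives the adjusted p spanned 0.0013 to 0.69 for SLC2A3 and 2e-04 to 0.68 for BNIP3. On the treated doses alone the difference passed for SLC2A3 (-0.23 ± 0.053, edgeR adjusted p = 0.033) but not for BNIP3 (-0.16 ± 0.062, 0.28). There PDK1 passed as well (-0.22 ± 0.055, 0.046), where 1.16% of all genes did.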

How the results depend on the processing

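Of the calls named above, 6 of 14 along Poria (SLC2A1, GPI, PFKM, ALDOA, LDHB and KDM3A), 2 of 13 along Atractylodis (SLC2A1 and GPI), 0 of 2 in the difference and 7 of 14 in treated against vehicle (SLC2A1, GPI, PFKM, ALDOA, GAPDH, PKM and LDHB) kept direction and side of the threshold in each refit that used vehicle, both extracts and the same dose scale. Leaving out 1 library gave 8 to 14 members along Poria (14.0% to 22.4% of all genes) and 3 to 15 along Atractylodis (5.67% to 21.3%). It gave 0 to 3 in the difference (0% to 1.64%) and 9 to 16 in treated against vehicle (16.3% to 29.3%). The edgeR difference count was 0 without any 1 vehicle library (0.770% to 0.825% of all genes). It was also 0 without Poria 500 or Atractylodis 500 µg/mL, as over all genes. In these refits 7 to 11 members had an unadjusted p under 0.05, where 7.6% to 12.2% of all genes did. With dose itself in place of the step, 1 member passed along Poria, 3 along Atractylodis and 1 in the difference (0.681%, 0.365% and 0.294% of all genes). With treated doses only the counts were 0 along Poria, 6 along Atractylodis and 2 in the difference (2.45%, 4.04% and 1.16% of all genes). With GC and length offsets added they were again 0, 6 and 2 (3.39%, 2.67% and 1.60%). Unadjusted, the 2 trends then gave 11 and 11, where 16.7% and 15.9% of all genes were. For the difference, DESeq2's Wald test gave 5 (1.79% of all genes) and no count filter 5 (1.71%). GC and length offsets gave 9 in treated against vehicle. Among slopes that passed in either of the fits compared, those that changed sign with treated doses only were LDHB along Poria (-0.006), and with the offsets added PKM along Poria (0.001) and HK1 (0.088, adjusted p = 0.028), ALDOA (0.009) and GAPDH (0.042) along Atractylodis. The cause of these changes was not tested. No paired analysis was possible because the groups compared share fewer than 2 replicate numbers to pair by. A comparison of the extracts that pairs libraries by dose was not run. With 1 library per dose, differences between neighbouring doses could not be tested, and below about 10 CPM counting error limits ANKRD37, EGLN3, ALDOC and HILPDA.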

Other observations

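Beyond the genes chosen by the rule, 2 genes of the wider lists are given here, picked after their values were seen. PFKFB2, a heart type member of the family of PFKFB3, stood at 11.8, 10.3 and 12.2 CPM in vehicle, 14.6, 14.4 and 15.0 CPM along Poria at 20, 100 and 500 µg/mL and 14.6, 16.3 and 16.8 CPM along Atractylodis. It rose in treated against vehicle (0.41 ± 0.068, edgeR adjusted p = 0.00028). PYGB, brain type glycogen phosphorylase, had a slope difference between the extracts of -0.093 ± 0.018 (adjusted p = 0.015).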
